A study of Homo sapiens with 26 samples.

Results

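The response of E545K LoVo cells to palbociclib was read from 4 of the 26 libraries of the series, 2 of cells treated with palbociclib and 2 of cells given DMSO. They were chosen by their sample titles, with no measured value used, and every gene of the table was kept. LoVo is a human colorectal cancer line. Its E545K derivative carries a PIK3CA mutation that was introduced with a lentiviral vector, and the series description names clone 2# for the treated line. PIK3CA encodes the catalytic subunit of phosphatidylinositol 3-kinase, and the substitution lies in its helical domain. Treated cells received 0.5 µM palbociclib and control cells DMSO for 72 hours. The protocol gives 48 hours for some control cells and does not name their libraries, so hours in culture could differ between groups and cannot be told apart from treatment. The H1047R derivative (clone 3#) and wild-type LoVo cells had the same treatments, again with 2 libraries in each group, and serve here as the comparison. For the treated lines 1 clone is named for each mutation, so mutation and clone cannot be told apart. The clone of the other E545K libraries used below is not stated. Nothing in the labels says that the 2 libraries of a group came from separate cultures. The p-values thus measure the spread between libraries of a group, which may be technical. That spread was pooled over all 9 groups of 2 libraries fitted, other lines and conditioned medium included.

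Palbociclib inhibits CDK4 and CDK6, the kinases that join D-type cyclins in early G1 and phosphorylate the retinoblastoma protein RB. Unphosphorylated RB holds the E2F transcription factors and keeps the genes of S phase low, and cells stop in G1. Prolonged inhibition is known to lead some tumour cells into a senescence-like arrest, with secretion of chemokines and, in several epithelial tumours, with interferon and antigen presentation genes raised.

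Values are FPKM, fragment counts scaled to transcript length and library total, as deposited. They were tested with limma on log2(FPKM + 1), a scale that understates the changes of low genes. Each log2 change is palbociclib minus DMSO, SE is its standard error, and a gene is called below an adjusted p of 0.05. Read depth is unknown, because the table holds no counts. The FPKM sums were 464925 and 464038 in the palbociclib libraries and 455820 and 478199 in the DMSO libraries, with ribosomal protein genes at 19.6% and 19.5% against 20.3% and 21.9%. Of the 12 epithelial and colonic markers, EPCAM stood at 279.6 and 257 FPKM under palbociclib and at 355 and 362 in DMSO, while KRT20 and LGALS4, of intestinal differentiation, stayed below 1 FPKM. The 12 summed to 12689.8 and 13121 FPKM under palbociclib and to 8152 and 8703 in DMSO, most of it KRT8 and KRT18. Markers of other cells were low in all 4 libraries. The 8 fibroblast markers listed summed to 5.34 and 5.42 FPKM under palbociclib and to 4.90 and 5.11 in DMSO, with DCN at 0 throughout, and the 7 endothelial markers to at most 0.54. The 10 immune markers summed to 40.5 and 42.3 FPKM under palbociclib and to 52.0 and 52.1 in DMSO, nearly all of it CD68, a lysosomal protein gene, with PTPRC, the pan-leukocyte antigen, at most 1.49. The part of these markers in the results was not tested. The E545K DMSO libraries stood apart from the other E545K libraries. On the first principal component of the 18 libraries they scored -18.2 and -19.1. E545K cells scored 27.9 and 27.2 under palbociclib and 30.7 and 30.0 in conditioned medium, and wild-type DMSO libraries -61.1 and -61.5. What palbociclib did therefore cannot be told apart from what else set these 2 DMSO libraries apart. In such bulk libraries fewer cells of a kind and less RNA per cell cannot be told apart either.

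PIK3CA, the mutated gene, had 10.4 and 9.92 FPKM under palbociclib and 8.2 and 7.37 in DMSO (0.35, adjusted p 0.0193), values that do not separate the mutant transcript from the cell's own. E545K cells had 15.2 and 16.3 FPKM in conditioned medium. H1047R cells had 5.95 and 4.38 FPKM under palbociclib and 6.36 and 7.19 in DMSO, and wild-type cells 7.23 and 6.68 under palbociclib and 5.38 and 5.42 in DMSO. In DMSO both E545K libraries were thus above those of the other lines. Its call in E545K did not hold with FPKM rescaled to equal sums, the TPM scale (adjusted p 0.0621), with quantile normalization (0.0577) or median-centring (0.0785), without either palbociclib library (0.0979 and 0.0511) and without DMSO replicate 2 (0.136), in a range of 0.00462 to 0.136.

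Of the 18165 genes listed, 12607 reached 1 FPKM in at least 2 of the 18 libraries of the table and were tested. Under palbociclib 4145 of them (32.9%) were called higher and 2434 (19.3%) lower, so 52.2% were called, with a median log2 change of 0.08 over all tested genes. The 2 groups did not overlap in 9946 genes (78.9%), so the lack of overlap in a named gene is common. How the calls divided depended on scaling between libraries. Quantile normalization gave 3354 genes higher and 3426 lower, and median-centring 2880 higher and 3667 lower. At least 2-fold changes were fewer and were mostly rises: 444 genes (3.52%) were called higher and 177 (1.4%) lower by that much. At least 4-fold, 30 were higher and 14 lower, and at least 8-fold 5 and 3.

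Among the 10 largest rises, 7 belonged to interferon-stimulated genes and 2 to chemokines, and the other was CD74, the invariant chain that guides class II molecules. CCL20, which attracts CCR6-bearing lymphocytes, had 35.6 and 31.4 FPKM under palbociclib and 0.78 and 0.56 in DMSO (log2 change 4.37), so the DMSO libraries were close to 0. The 10 largest falls came from several families. ALPG, a placental-type alkaline phosphatase, had 15.9 and 16.7 FPKM under palbociclib and 279 and 275 in DMSO (-4.01). GDF15, a stress-induced cytokine, had 40.6 and 42.3 FPKM under palbociclib and 422 and 483 in DMSO (-3.42). The amiloride-sensitive sodium channel subunit SCNN1A stood at 1.82 and 1.97 FPKM under palbociclib against 18 and 15.5 in DMSO (-2.61). FGFBP1, a secreted binding protein of fibroblast growth factors, had 6.19 and 7.17 FPKM under palbociclib and 40.0 and 44.9 in DMSO (-2.50). TNFSF9, the ligand of the T cell costimulator 4-1BB, had 15.5 and 16.3 FPKM under palbociclib and 82.0 and 82.0 in DMSO (-2.30). The rule that chose these 20 required that the groups did not overlap.

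**Figure D1:**
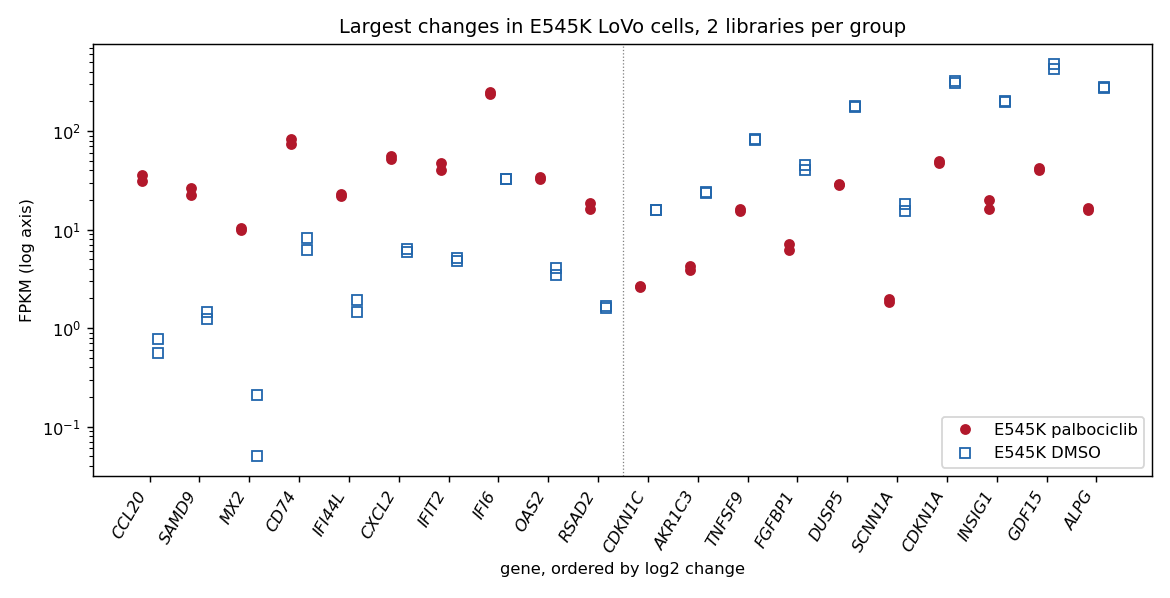
FPKM on a log axis for the 10 highest and 10 lowest log2 changes in E545K cells, ordered from the highest at the left; filled circles are the 2 palbociclib libraries and open squares the 2 DMSO libraries. The palbociclib circles lie above the DMSO squares for CCL20 to RSAD2 and below them for CDKN1C to ALPG, and the MX2 squares, at 0.21 and 0.05 FPKM, are the lowest points.

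Interferon-stimulated genes rose nearly as a whole. Under palbociclib 40 of 42 were higher, 28 of them at least 2-fold, against 32.9% and 3.52% of all tested genes. The list had a median log2 change of 1.4. GBP2, a guanylate-binding protein, was the single gene lower (-0.56), and HERC5 was not called (-0.17). SAMD9, an antiviral inhibitor of poxvirus translation, had 26.2 and 22.5 FPKM under palbociclib and 1.47 and 1.23 in DMSO (log2 change 3.43, SE 0.11, adjusted p 2.36e-11). MX2, a dynamin-like GTPase that blocks HIV nuclear entry, had 10.4 and 9.99 FPKM against 0.21 and 0.05, at the low end where the scale understates the fold (3.31). IFI6, an antiapoptotic membrane protein, was the most abundant of the 7 described here, at 240.2 and 249 FPKM under palbociclib and 32.9 and 32.7 in DMSO (2.86). The RNA-binding IFIT2 had 47.4 and 40.3 FPKM under palbociclib and 5.13 and 4.78 in DMSO (2.91). OAS2, which makes the activator of RNase L, had 33.8 and 32.9 FPKM under palbociclib and 4.07 and 3.44 in DMSO (2.86). RSAD2, the antiviral enzyme viperin, had 18.5 and 16.3 FPKM under palbociclib and 1.66 and 1.59 in DMSO (2.81). IFI44L, a feedback regulator of the interferon response, had 22.1 and 23.1 FPKM under palbociclib and 1.94 and 1.46 in DMSO (3.13).

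The bases before the start of 3 of these genes are shown because a class of element bound by interferon-regulated factors, the interferon-stimulated response element, recurs there. The sequences are from RefSeq (GRCh38.p14), 150 bases upstream of the annotated start, written 5′ to 3′ on the gene's strand, with its letters (TTTC, 2 bases of any kind, TTTC, or the reverse complement) in capitals. SAMD9 lies on the minus strand at chr7:93117980-93118129, IFI44L on the plus strand at chr1:78620298-78620447 and IFI6 on the minus strand at chr1:27672193-27672342.
SAMD9: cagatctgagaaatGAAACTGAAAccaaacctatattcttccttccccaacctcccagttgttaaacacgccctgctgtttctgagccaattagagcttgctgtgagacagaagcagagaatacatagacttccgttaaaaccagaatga
IFI44L: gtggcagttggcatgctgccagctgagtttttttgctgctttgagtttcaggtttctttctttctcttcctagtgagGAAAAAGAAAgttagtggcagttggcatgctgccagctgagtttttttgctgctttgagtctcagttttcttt
IFI6: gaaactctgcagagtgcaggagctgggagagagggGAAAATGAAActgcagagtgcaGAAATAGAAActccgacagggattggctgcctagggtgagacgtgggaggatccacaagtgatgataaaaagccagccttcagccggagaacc
Over 250 bases upstream, searched on both strands, this motif occurred in 19 of 34 interferon-stimulated genes with an entry (55.9%) and in 244 of 10315 tested genes (2.37%). A match describes the letters only.

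Most genes that detect viral nucleic acid rose as well, while those that carry the interferon signal were called about as often as all tested genes. Of 11 sensors and adaptors 9 rose and 0 fell (median 1.34). DDX58, the RNA sensor RIG-I, had 46.9 and 43.5 FPKM under palbociclib and 11.3 and 9.64 in DMSO (2.01). IFIH1, the sensor MDA5, had 24.5 and 23.4 FPKM under palbociclib and 6.48 and 6.55 in DMSO (1.73). IFI16, a DNA sensor, had 4.22 and 3.96 FPKM under palbociclib and 0.4 and 0.6 in DMSO (1.77). CGAS, the cytosolic DNA sensor, and the kinase gene TBK1 were not called (-0.19 and 0.26). Among 22 receptors, JAK kinases, STAT and IRF factors 9 rose and 4 fell (median 0.13), against 32.9% and 19.3% of all tested genes. IRF9, the DNA-binding subunit of the interferon-activated complex, had 14.9 and 14.0 FPKM under palbociclib and 6.39 and 6.96 in DMSO (1.01). The interferon gamma receptor chain IFNGR1 had 104.99 and 100.2 FPKM under palbociclib and 43.6 and 44.1 in DMSO (1.21). Among those that fell were the signal inhibitor SOCS1 and the receptor chains IFNGR2 and IFNLR1 (-0.57, -0.31 and -0.25). STAT2, another subunit of that complex, and IRF7, an inducer of interferon genes, rose (0.42 and 0.74).

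Genes of both antigen presentation routes rose. Among all tested genes 32.9% rose and 19.3% fell. For HLA class I and peptide loading 19 of 20 rose and 0 fell, with a median of 0.69, and the remaining gene, HLA-E, stood at -0.03. After median-centring 14 of this list were still called higher. The immunoproteasome subunit PSMB9 had 55.7 and 57.3 FPKM under palbociclib and 22.9 and 27.2 in DMSO (1.15). TAPBPL, an editor of class I peptides, had 15.4 and 17.0 FPKM under palbociclib and 4.77 and 4.59 in DMSO (1.60). The transporter chain TAP2 had 35.5 and 36.6 FPKM under palbociclib and 17.0 and 19.4 in DMSO (0.96). Of 16 class II genes 15 rose and 0 fell (median 0.87), among them CIITA, the master activator of the class (0.71), and HLA-DOB was not called (0.54). CD74 had 74.6 and 83.5 FPKM under palbociclib and 6.25 and 8.24 in DMSO (log2 change 3.29, SE 0.14, adjusted p 3.41e-10). HLA-DRA, the alpha chain of HLA-DR, had 45.6 and 42.1 FPKM under palbociclib and 10.2 and 11.6 in DMSO (1.92). In the second table, described last, palbociclib-treated E545K cells had these class II genes close to the DMSO level given here.

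Ligands for NK cells and checkpoint molecules went both ways, with 5 of 16 raised and 8 lowered, beside 32.9% and 19.3% of all tested genes. MICA and MICB, stress ligands of the NK cell receptor NKG2D, had 21.1 and 19.3 FPKM under palbociclib against 37.1 and 39.4 in DMSO for MICA (-0.89) and 17.4 and 19.6 under palbociclib against 38.3 and 38.5 in DMSO for MICB (-1.02). LGALS9, which encodes galectin-9, had 4.58 and 4.49 FPKM under palbociclib and 1.13 and 0.78 in DMSO (1.51). CD47, the signal against phagocytosis, had 33.6 and 32.0 FPKM under palbociclib and 19.1 and 16.7 in DMSO (0.84). CD274, the gene of PD-L1, was not called (0.01).

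Chemokines of the CXCR2 ligand group were raised together, and NF-kB genes with them. Of 29 chemokines and cytokines 15 rose and 4 fell, and of 23 NF-kB factors and targets 15 rose and 2 fell (median 0.38 in each). All tested genes rose in 32.9% and fell in 19.3%. CXCL2, which attracts neutrophils, had 55.3 and 52.4 FPKM under palbociclib and 5.87 and 6.35 in DMSO (2.95). Its close paralog CXCL1 had 467 and 428 FPKM under palbociclib and 118 and 107 in DMSO (1.98). CXCL3 had 169 and 156 FPKM under palbociclib and 26.1 and 25.6 in DMSO (2.61). CXCL8, interleukin 8, had 58.7 and 46.6 FPKM under palbociclib and 23.2 and 21.2 in DMSO (1.20). CXCL10, a T cell attractant induced by interferon, had 17.8 and 14.9 FPKM under palbociclib and 2.52 and 2.28 in DMSO (2.35). The ubiquitin ligase BIRC3 had 92.2 and 87.8 FPKM under palbociclib and 23.2 and 20.4 in DMSO (2.00). The feedback inhibitor TNFAIP3 had 48.5 and 47.1 FPKM under palbociclib and 17.5 and 15.8 in DMSO (1.47). NFKB1, the p50 subunit, had 29.7 and 28.8 FPKM under palbociclib and 10.6 and 10.6 in DMSO (1.38). The subunit genes RELA, REL and NFKB2 were not called (-0.11, -0.09 and 0.14). The interleukin genes IL11 and IL1B, the alarm cytokine TSLP and the eosinophil attractant CCL26 fell (-0.81, -0.58, -0.55 and -0.76), as did IER3 and PLAUR, the urokinase receptor (-0.85 and -0.56). Other innate defence genes were mixed: 9 of 21 rose, with NOS2, inducible nitric oxide synthase, at 13.2 and 13.5 FPKM under palbociclib and 1.8 and 1.67 in DMSO (2.39) and the elastase inhibitor PI3 at 568 and 543 FPKM under palbociclib and 143 and 160.2 in DMSO (1.87), and 3 fell. Matrix proteases and their inhibitors rose in 5 of 20 and fell in 9. The metalloproteinases MMP7 and MMP1 had 3.18 and 3.12 FPKM under palbociclib against 0.47 and 0.31 in DMSO for MMP7 (1.58) and 2.42 and 2.29 under palbociclib against 0.29 and 0.26 in DMSO for MMP1 (1.4). PLAT, tissue plasminogen activator, had 2.44 and 2.63 FPKM under palbociclib and 6.16 and 6.34 in DMSO (-1.04).

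For CCL20 and CXCL2 the 150 bases before the start, shown in the same way, hold a kappa B motif, the kind of sequence NF-kB binds, in capitals. The motif searched was GGGRNNYYCC on either strand, with R for A or G, Y for C or T and N for any base. The 150 bases before CD74, which also rose, held 3 overlapping matches. Among the genes that fell, the 250 bases upstream of GDF15 also held a kappa B motif, and those of TNFSF9 the interferon-stimulated response element. CCL20 lies on the plus strand at chr2:227813692-227813841 and CXCL2 on the minus strand at chr4:74099196-74099345, where 2 overlapping matches form the capitals.
CCL20: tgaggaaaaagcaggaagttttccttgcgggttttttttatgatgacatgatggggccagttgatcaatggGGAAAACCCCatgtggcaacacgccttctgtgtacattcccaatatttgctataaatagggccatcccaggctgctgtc
CXCL2: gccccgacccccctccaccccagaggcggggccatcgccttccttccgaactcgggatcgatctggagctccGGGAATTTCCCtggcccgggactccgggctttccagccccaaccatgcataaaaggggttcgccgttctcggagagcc
The motif was present in the 250 bases upstream of 8 of 22 chemokine and cytokine genes (36.4%), 7 of 20 NF-kB genes (35%) and 1229 of 10315 tested genes (11.9%).

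The drug's target and its substrate were themselves higher at the RNA level. CDK4 had 145 and 138 FPKM under palbociclib and 70.0 and 79.0 in DMSO (log2 change 0.92, SE 0.11, adjusted p 1.06e-05). RB1 had 8.18 and 6.73 FPKM under palbociclib and 3.57 and 2.79 in DMSO (log2 change 1.02, SE 0.12, adjusted p 5.48e-06). CCND1, the D-type cyclin that partners CDK4, had 142 and 140.1 FPKM under palbociclib and 78.6 and 78.6 in DMSO (0.84). CCNE1, the cyclin of CDK2, had 19.0 and 18.6 FPKM under palbociclib and 13.7 and 14.4 in DMSO (0.39). The groups did not overlap in these 4 genes, nor in the uncalled CDK6 and CCNE2, as in 78.9% of all tested genes. The SE of CDK6 (0.14) was pooled over all 9 groups, with 13.4 and 8.66 FPKM in the H1047R palbociclib libraries. CDK6 was not called at 12.7 and 12.0 FPKM under palbociclib and 11.9 and 10.1 in DMSO (0.16, adjusted p 0.372), nor were CCNE2 (0.28, adjusted p 0.0751) and E2F1, whose groups overlapped (10.1 and 10.8 FPKM under palbociclib and 10.7 and 12.1 in DMSO; -0.11). Within the list of 20 genes of the CDK4/6 and RB core 9 rose and 5 fell, beside 32.9% and 19.3% of all tested genes, and the 5 were CCNA2, CDK1, E2F2, E2F7 and CDK2 (-0.85, -0.71, -0.54, -0.52 and -0.33). CCNA2, the cyclin of S and G2 phase, had 24.4 and 21.5 FPKM under palbociclib and 42.4 and 41.8 in DMSO.

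CDK inhibitor genes fell: 6 of 8 did, 3 of them at least 2-fold, and 0 rose. The shares of all tested genes were 19.3% lower, 1.4% lower by at least 2-fold, and 32.9% higher. CDKN1A, the p53-induced inhibitor p21, had 47.7 and 49.2 FPKM under palbociclib and 308 and 319 in DMSO (log2 change -2.67, SE 0.11, adjusted p 2.74e-10). CDKN1C, the inhibitor p57, had 2.68 and 2.64 FPKM under palbociclib and 15.8 and 15.7 in DMSO (-2.20). CDKN2D, the INK4 inhibitor p19, had 5.55 and 5.37 FPKM under palbociclib and 14.6 and 14.9 in DMSO (-1.29). CDKN1B, the inhibitor p27, had 35.9 and 35.2 FPKM under palbociclib and 57.5 and 55.5 in DMSO (-0.65). CDKN2A, the senescence-linked locus of p16, was lower by less, at 10.4 and 12.4 FPKM under palbociclib and 14.6 and 14.7 in DMSO (-0.34, adjusted p 0.0115). That call was lost without palbociclib replicate 1 (adjusted p 0.146) or without DMSO replicate 2 (0.055), in a range of 0.00143 to 0.146 over 13 alternatives.

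Mitosis genes mostly fell, whereas replication genes were called about as often as all tested genes. Of 46 mitosis genes 31 fell and 3 rose, against 19.3% and 32.9% of all tested genes. In this list 0 passed 2-fold and the median was -0.37. The kinesin KIF2C had 30.1 and 29.6 FPKM under palbociclib and 54.3 and 56.6 in DMSO (-0.87). The kinase AURKB had 41.2 and 41.6 FPKM under palbociclib and 73.1 and 77.6 in DMSO (-0.85). Securin, PTTG1, had 139 and 134 FPKM under palbociclib and 233 and 266 in DMSO (-0.87). TOP2A, the DNA topoisomerase of dividing cells, had 72.9 and 67.2 FPKM under palbociclib and 116 and 106 in DMSO (-0.66). NCAPG and SMC2, subunits of condensin, and HMMR, a spindle protein, were the 3 that rose (0.58, 0.32 and 0.23), and 1 mitosis gene was higher after quantile normalization or median-centring. The proliferation marker MKI67 had 34.8 and 37.9 FPKM under palbociclib and 61.8 and 48.6 in DMSO (-0.58, adjusted p 0.0204). Its groups did not overlap. The call was lost on the TPM scale (adjusted p 0.0577), without palbociclib replicate 1 or 2 (0.108 and 0.0511) and without DMSO replicate 1 (0.171), in a range of 5.54e-05 to 0.171.

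Its promoter stands for those of the mitosis list, in which TTTGAA, the core of the cell-cycle homology region bound by the DREAM and MuvB complexes, is frequent. MKI67 lies on the minus strand at chr10:128126424-128126573, and TTTGAA or its reverse complement is in capitals.
MKI67: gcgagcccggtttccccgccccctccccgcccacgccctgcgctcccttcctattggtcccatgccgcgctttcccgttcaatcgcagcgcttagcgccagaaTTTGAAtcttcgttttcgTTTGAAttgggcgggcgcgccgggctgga
In the 250 bases upstream this hexamer occurred in 22 of 39 mitosis genes (56.4%) and in 861 of 10315 tested genes (8.35%), on either strand.

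Of 41 replication genes 12 rose and 8 fell, near the all-gene shares of 32.9% and 19.3%, and a balance of 11 and 11 with quantile normalization and of 10 and 12 with median-centring. The helicase subunit MCM3 had 71.2 and 75.8 FPKM under palbociclib and 38.6 and 39.7 in DMSO (0.89). GINS3, a subunit of the same replicative helicase, had 10.1 and 9.35 FPKM under palbociclib and 3.94 and 3.76 in DMSO (1.15). CDT1, which loads that helicase at origins, went the other way with 21.0 and 21.9 FPKM under palbociclib and 47.6 and 50.4 in DMSO (log2 change -1.15, SE 0.14, adjusted p 7.19e-06). Of 13 chromatin and lamin genes linked to senescence 6 fell and 1 rose. LMNB1, whose loss accompanies senescence, had 42.8 and 39.0 FPKM under palbociclib and 50.9 and 48.6 in DMSO (-0.28), while LMNA, the A-type lamin, fell by more, with 212 and 231 FPKM under palbociclib and 424 and 473 in DMSO (-1.01). The chromatin protein HMGB2 had 107 and 114 FPKM under palbociclib and 181 and 192 in DMSO (-0.75), and HMGA2 was the gene that rose (13.5 and 15.1 FPKM under palbociclib and 10.0 and 8.6 in DMSO; 0.57).

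**Figure D2:**
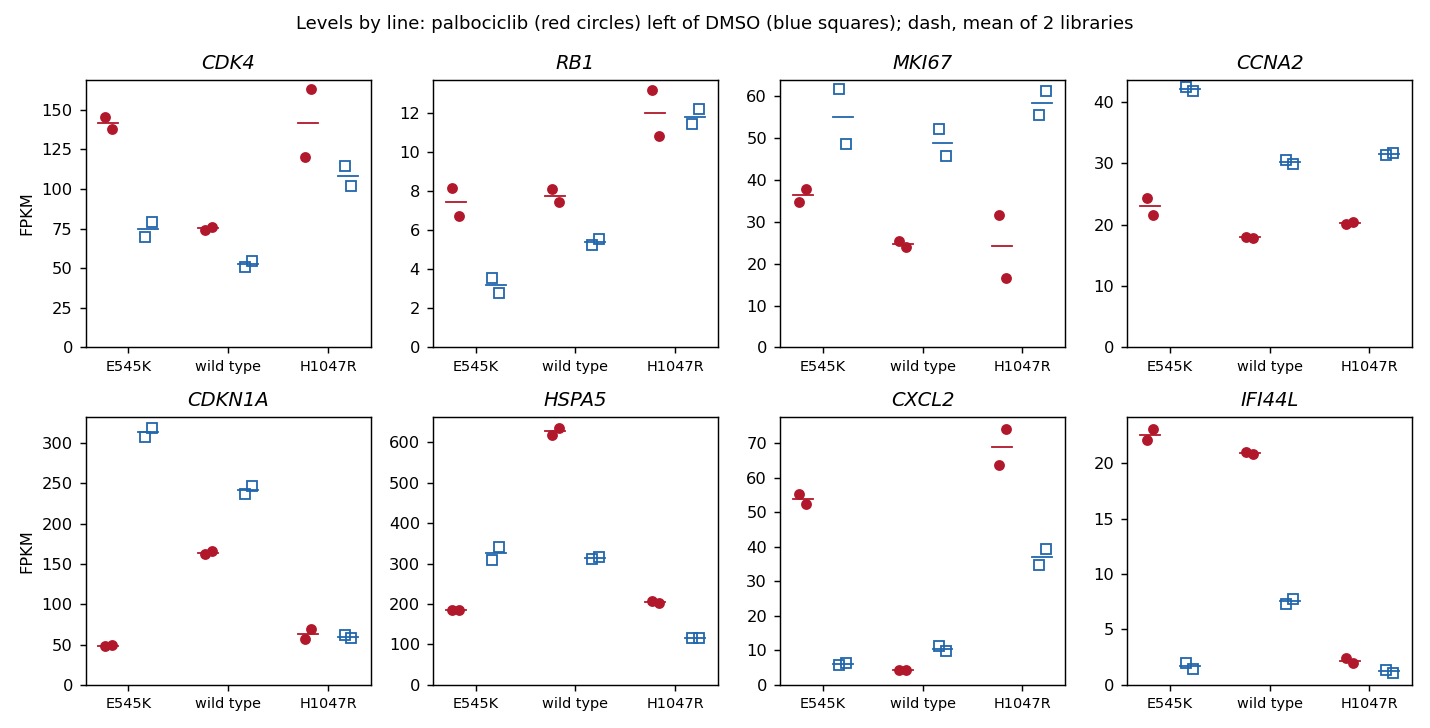
FPKM of 8 genes in E545K, wild-type and H1047R cells, each panel with its own axis from 0; circles are palbociclib libraries, squares DMSO libraries and dashes the means of 2. CDKN1A and HSPA5 fell in E545K, where HSPA5 had 185 and 186 FPKM under palbociclib and 310.0 and 342 in DMSO, while HSPA5 rose in both other lines.

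Targets of p53 were lowered in 21 of 28 genes, 9 of them at least 2-fold, with 4 raised and a median of -0.73. PLK3, a stress-activated kinase, had 7.23 and 7.86 FPKM under palbociclib and 25.9 and 26.9 in DMSO (-1.68). BBC3, the death gene PUMA, had 26.5 and 30.8 FPKM under palbociclib and 82.7 and 84.3 in DMSO (-1.52). MDM2, the ubiquitin ligase of p53, fell by 0.65 on the log2 scale, and BAX by 0.54. The genes that rose were TP53I3, an oxidoreductase, at 23.3 and 23.1 FPKM under palbociclib and 4.8 and 3.7 in DMSO (2.21), the metabolic regulator TIGAR (0.52), SESN2 (0.44) and SERTAD1 (0.36). Of 28 genes of the BCL2 family and the death receptors 7 rose and 10 fell, beside 32.9% and 19.3% of all tested genes. CASP8, the initiator caspase of death receptors, had 30.2 and 28.0 FPKM under palbociclib and 10.8 and 11 in DMSO (1.34). TNFRSF1A, the TNF receptor, had 40.9 and 43.7 FPKM under palbociclib and 69.0 and 77.3 in DMSO (-0.78).

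Genes driven by ERK signalling were lowered more often than raised, 15 and 4 of 29 (median -0.27). DUSP5, a nuclear ERK phosphatase, had 28.7 and 28.2 FPKM under palbociclib and 176 and 181 in DMSO (log2 change -2.61, SE 0.10, adjusted p 1.47e-10). The early response genes IER5 and FOS had 10.4 and 9.89 FPKM under palbociclib against 27.7 and 30.7 in DMSO for IER5 (-1.44) and 1.95 and 1.89 under palbociclib against 5.23 and 5.37 in DMSO for FOS (-1.11). The ETS factor ETV4 had 26.2 and 30.5 FPKM under palbociclib and 60.6 and 67.2 in DMSO (-1.15). MYC, CCND1, DUSP6, a cytoplasmic ERK phosphatase, and ETV1 were the 4 that rose (0.92, 0.84, 0.63 and 0.35). Of 12 receptors and ligands of the EGFR family 1 rose and 4 fell. EGFR itself was not called, at 79.7 and 80.7 FPKM under palbociclib and 76.4 and 73.2 in DMSO (0.10, adjusted p 0.608), although the groups did not overlap. The SE of EGFR (0.153) was pooled over all 9 groups, and the H1047R palbociclib libraries stood at 65.9 and 38.9 FPKM. The sign of EGFR turned after median-centring (-0.04). Its ligand BTC, betacellulin, had 9.48 and 8.04 FPKM under palbociclib and 2.5 and 2.15 in DMSO (1.55). Another ligand, AREG or amphiregulin, had 127 and 114 FPKM under palbociclib and 192 and 199 in DMSO (-0.69). Of 29 genes of the PI3K, insulin receptor and FOXO pathway 6 rose and 10 fell, beside 32.9% and 19.3% of all tested genes. The regulatory subunit gene PIK3R3 had 6.48 and 6.71 FPKM under palbociclib and 2.57 and 2.16 in DMSO (1.18). The transcription factor FOXO1 had 8.32 and 8.18 FPKM under palbociclib and 17.0 and 15.3 in DMSO (-0.89). TXNIP, an inhibitor of glucose uptake, had 133 and 119 FPKM under palbociclib and 217 and 221 in DMSO (-0.80).

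Sterol genes were lowered in 19 of 28, 9 of them at least 2-fold, and raised in 4 (median -0.60). INSIG1, which retains the SREBP complex in the endoplasmic reticulum, had 19.7 and 16.2 FPKM under palbociclib and 199.6 and 197 in DMSO (log2 change -3.40, SE 0.08, adjusted p 1.98e-12). The sterol oxidase MSMO1 had 27.4 and 24.8 FPKM under palbociclib and 109.9 and 98.7 in DMSO (-1.96). The sterol transfer protein STARD4 had 19.4 and 17.4 FPKM under palbociclib and 64.4 and 51.6 in DMSO (-1.60). TM7SF2, PMVK and LSS, enzymes of sterol synthesis, were among the 4 that rose (0.87, 0.51 and 0.20). A sterol regulatory element, TCACNCCAC on either strand, was present in the 250 bases upstream of 1 of 20 sterol genes (5%) and of 86 of 10315 tested genes (0.834%). In fatty acid synthesis and storage 6 of 23 rose and 8 fell, beside 32.9% and 19.3% of all tested genes. The desaturase SCD had 39.9 and 37.4 FPKM under palbociclib and 102 and 96.4 in DMSO (-1.34). The acetyl-CoA synthetase ACSS2 had 19.9 and 19.7 FPKM under palbociclib and 53.4 and 50.9 in DMSO (-1.35). ACSL1 and ACSL5, acyl-CoA synthetases of the same family, moved in opposite directions, with 9.17 and 8.47 FPKM under palbociclib and 19.6 and 19.4 in DMSO for ACSL1 (-1.06) and 36.0 and 33.0 FPKM under palbociclib and 18.0 and 16.2 in DMSO for ACSL5 (0.97).

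Chaperones of the endoplasmic reticulum were lowered in 9 of 19 and raised in 3 (median -0.16). HSPA5, the chaperone BiP, had 185 and 186 FPKM under palbociclib and 310.0 and 342 in DMSO (log2 change -0.81, SE 0.07, adjusted p 2.87e-07). MANF, a secreted stress factor, had 64.0 and 63.4 FPKM under palbociclib and 93.4 and 97.1 in DMSO (-0.57). HERPUD1, a component of the degradation complex, had 27.7 and 28.2 FPKM under palbociclib and 41.2 and 42.3 in DMSO (-0.56). The genes that rose were CRELD2, calreticulin (CALR) and calnexin (CANX), at 0.75, 0.37 and 0.32. Without palbociclib replicate 2 or without DMSO replicate 1 the number lowered was 5. Genes of the ATF4 response and amino acid supply moved in both directions, 12 of 30 up and 8 down, beside 32.9% and 19.3% of all tested genes. After median-centring 9 and 9 genes of the ATF4 response were called. ATF5 and DDIT3, transcription factors of this response, had 10.9 and 10.3 FPKM under palbociclib against 2.62 and 3.34 in DMSO for ATF5 (1.55) and 67.2 and 71.0 under palbociclib against 31.5 and 32.9 in DMSO for DDIT3 (1.08). CTH, which makes cysteine, had 12.5 and 10.1 FPKM under palbociclib and 26.3 and 23.2 in DMSO (-1.07). Cytosolic and mitochondrial heat shock proteins were also divided, 4 of 15 up and 3 down (6 and 3 under quantile normalization but 3 and 4 under median-centring), with HSPA1B at 68.3 and 73.0 FPKM under palbociclib and 131 and 139 in DMSO (-0.92) and DNAJA1 at 142 and 136 FPKM under palbociclib and 96.7 and 94.4 in DMSO (0.54). Of 20 tRNA synthetase genes 7 rose and 1 fell, but 4 and 5 after median-centring. WARS1, the synthetase that interferon gamma induces, had 118 and 115 FPKM under palbociclib and 47.3 and 50.4 in DMSO (1.24).

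Ribosome biogenesis genes rose in 23 of 28 and fell in 0 (median 0.57), against 32.9% and 19.3% of all tested genes. After median-centring 18 of this list were called higher and 1 lower. POLR1A, the large subunit of RNA polymerase I, had 10.3 and 10.8 FPKM under palbociclib and 3.99 and 3.94 in DMSO (1.22). Its activator UBTF had 34.1 and 36.0 FPKM under palbociclib and 15.9 and 16.3 in DMSO (1.08). NOP56, a core protein of small nucleolar particles, had 86.5 and 97.2 FPKM under palbociclib and 44 and 43.8 in DMSO (1.05). MYC had 76.9 and 78.6 FPKM under palbociclib and 40.1 and 41.1 in DMSO (0.92), and its network of 12 genes, MYC among them, was divided, 6 up and 5 down, or 3 and 5 after quantile normalization or median-centring. MXD3, a partner of MAX that represses, had 8.86 and 10.4 FPKM under palbociclib and 18.9 and 19 in DMSO (-0.91). The ribosomal protein share given above was slightly lower in the palbociclib libraries than in the DMSO libraries.

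Of the 23 genes of the NRF2 response and the AKR1C family 12 fell and 0 rose (median -0.32), and 1 was higher after quantile normalization. AKR1C3, a ketosteroid reductase, had 4.23 and 3.92 FPKM under palbociclib and 23.8 and 23.7 in DMSO (-2.29). TKT, transketolase of the pentose phosphate pathway, had 169 and 181 FPKM under palbociclib and 543 and 578 in DMSO (-1.67). NQO1 and HMOX1, classic NRF2 targets, were not called (-0.21 and 0.16). Drug metabolism and efflux genes rose in 5 of 21 and fell in 7, among them EPHX1, an epoxide hydrolase, at 19.3 and 22.3 FPKM under palbociclib and 45.3 and 53.8 in DMSO (-1.21). Of 8 metallothionein list genes 4 rose and 1 fell. MT1E, a zinc-binding protein, had 117 and 109 FPKM under palbociclib and 32.9 and 36.8 in DMSO (1.67), while SLC30A1, the zinc exporter, was the gene that fell (12.1 and 10.5 FPKM under palbociclib and 19.4 and 17.6 in DMSO; -0.67). Lysosome genes rose in 13 of 32 and fell in 5, beside 32.9% and 19.3% of all tested genes. The cathepsin gene CTSZ had 99.6 and 107 FPKM under palbociclib and 56.6 and 59.6 in DMSO (0.82). NPC1, which exports cholesterol from lysosomes, had 19.9 and 19.0 FPKM under palbociclib and 45 and 44.0 in DMSO (-1.15). Oxidative phosphorylation and hypoxia with glycolysis were called no more often than all tested genes: 3 of 32 rose and 6 fell, and 6 of 31 rose and 4 fell. Both balances turned with scaling, the first to 7 and 6 after quantile normalization and the second to 4 and 8 after median-centring. ALDOC, an aldolase, had 10.9 and 12.3 FPKM under palbociclib and 29.2 and 30.5 in DMSO (-1.29). HK2, a hexokinase, had 20.6 and 19.98 FPKM under palbociclib and 12.3 and 11.9 in DMSO (0.70).

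Genes of intestinal identity and surface gave a mixed picture. Of 17 Wnt targets and stem cell genes 5 rose and 3 fell, near the all-gene shares of 32.9% and 19.3%, and 4 and 4 after either scaling. LGR5, the receptor of intestinal stem cells, had 58.9 and 58.6 FPKM under palbociclib and 14.7 and 12.9 in DMSO (log2 change 2.01, SE 0.16, adjusted p 1.44e-07). EPHB3, a Wnt-induced guidance receptor, had 1.1 and 1.36 FPKM under palbociclib and 4.17 and 4.49 in DMSO (-1.26). Of 11 differentiation genes 5 rose and 2 fell. CEACAM6 and CEACAM5, carcinoembryonic adhesion proteins, had 19.5 and 19.8 FPKM under palbociclib against 5.4 and 5.73 in DMSO for CEACAM6 (1.65) and 44.1 and 49.5 under palbociclib against 23.6 and 18 in DMSO for CEACAM5 (1.14). GUCA2A, the peptide guanylin, had 15.0 and 17.7 FPKM under palbociclib and 6.1 and 6.58 in DMSO (1.24). MUC2 and CA2, markers of goblet cells and colonocytes, fell (-0.47 and -0.51). The homeobox factor CDX2 rose, with 68.3 and 72.5 FPKM under palbociclib and 44.5 and 45.6 in DMSO (0.63), among 5 of 11 epithelial markers raised and 4 lowered, or 4 and 4 after median-centring. The keratins KRT8 and KRT18 were the most abundant of these, at 6161 and 6291 FPKM under palbociclib against 3764 and 4211 in DMSO for KRT8 (0.65) and 5391 and 5687 under palbociclib against 3384 and 3426 in DMSO for KRT18 (0.70). The 4 lowered were EPCAM, given above, ELF3, CDH17 and LGALS4. ELF3 had 41.0 and 39.1 FPKM under palbociclib and 60 and 65.2 in DMSO. CDH17 had 5.75 and 6.16 against 8.08 and 8.05, and LGALS4 0.45 and 0.31 against 0.85 and 0.79.

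Transport, junction and matrix lists were also called in both directions, junction and TGF-beta genes at shares near the 32.9% and 19.3% of all tested genes. Ion and water transport genes rose in 6 of 17 and fell in 5, or 6 and 7 after quantile normalization. The chloride channel CFTR had 24.0 and 22.8 FPKM under palbociclib and 9.32 and 8.65 in DMSO (1.29), and the cotransporter SLC12A2, which loads the cell with chloride, 14.1 and 11.8 FPKM under palbociclib and 6.49 and 5.64 in DMSO (0.98). Placental-type phosphatases and other surface antigens fell in 6 of 11 and rose in 3, with ALPP, the paralog of ALPG, at 127 and 135 FPKM under palbociclib and 286 and 283 in DMSO (-1.12) and LY6D, a surface antigen of epithelia, at 1.88 and 1.83 FPKM under palbociclib and 5.97 and 6.55 in DMSO (-1.35). Junction genes rose in 7 of 25 and fell in 5, but 5 and 9 after median-centring. The desmosomal cadherin DSC2 had 77.5 and 67.9 FPKM under palbociclib and 26.3 and 25.6 in DMSO (1.45). JUP, plakoglobin of the same junction, had 46.1 and 50.1 FPKM under palbociclib and 80.3 and 83.8 in DMSO (-0.76). Keratin and S100 genes rose in 5 of 17 and fell in 5, with 7 and 6 under quantile normalization but 3 and 7 under median-centring. Of 20 mesenchymal and matrix genes 6 rose and 8 fell, among them thrombospondin 1, THBS1, at 26.3 and 26.3 FPKM under palbociclib and 5.86 and 5.4 in DMSO (2.04) and the repressor SNAI1 at 4.4 and 3.59 FPKM under palbociclib and 9.15 and 10.1 in DMSO (-1.09). Targets of YAP rose in 7 of 17 and fell in 4, or 5 and 6 after quantile normalization, and genes of TGF-beta and BMP rose in 8 of 24 and fell in 3, or 5 and 5. In the Notch pathway 3 of 18 rose and 6 fell, with the receptors NOTCH3 and NOTCH1 at 9.21 and 10.9 FPKM under palbociclib against 19.4 and 19.1 in DMSO for NOTCH3 (-0.88) and 5.11 and 5.64 under palbociclib against 10.7 and 10.2 in DMSO for NOTCH1 (-0.85).

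**Figure D3:**
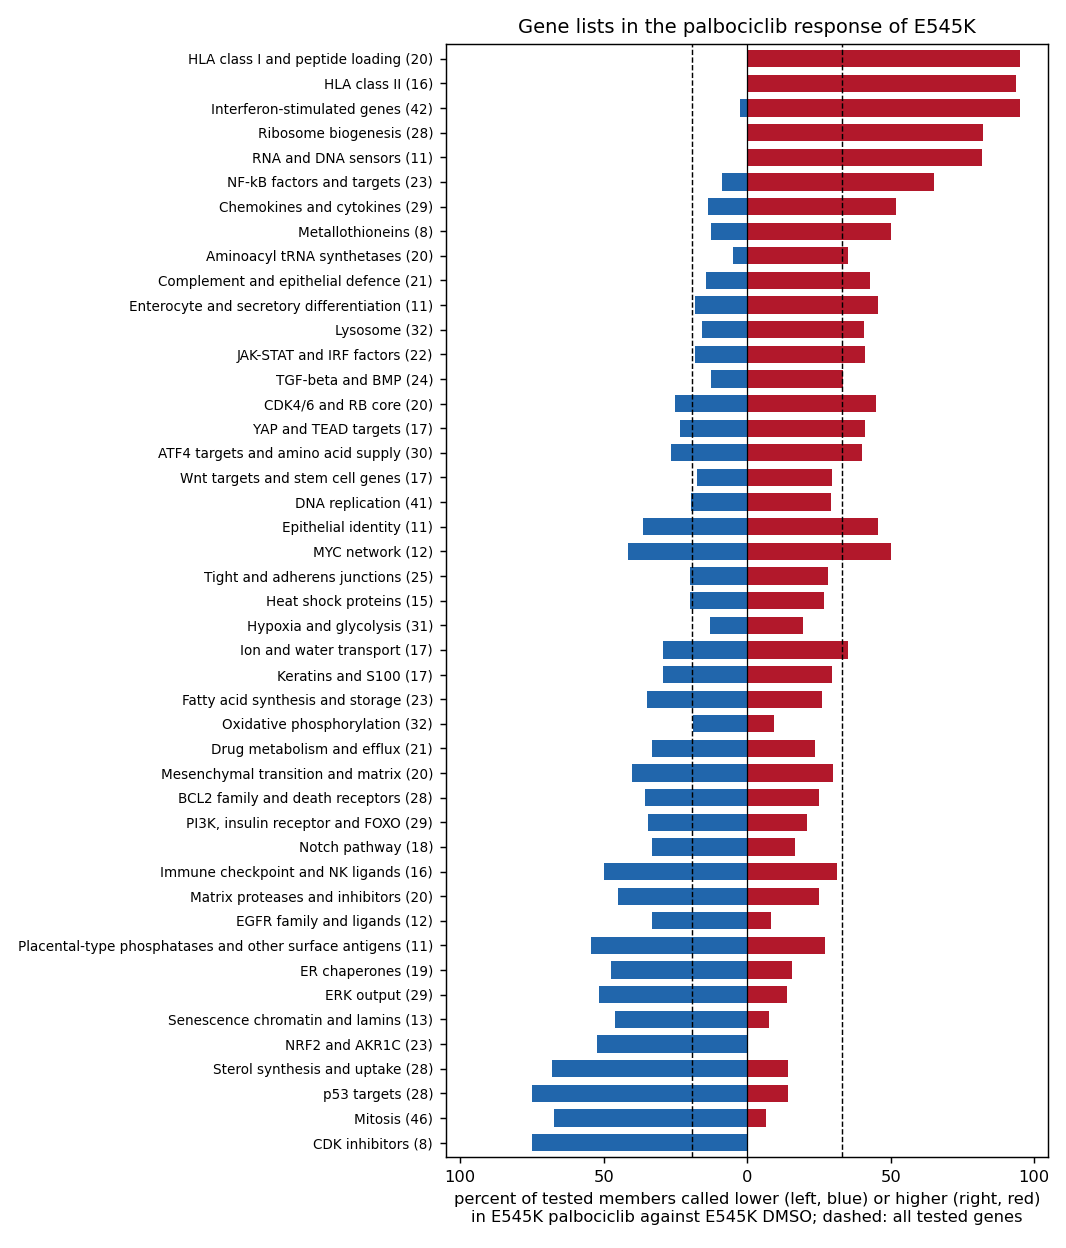
Percent of the tested members of each gene list called higher (red, to the right) or lower (blue, to the left) in E545K palbociclib against E545K DMSO libraries, with the number tested in parentheses and dashed lines at 32.9% and 19.3% for all tested genes. Lists with 19 of 20 class I and peptide loading, 15 of 16 class II and 40 of 42 interferon-stimulated genes raised stand at the top. CDK inhibitors, mitosis and p53 targets, lowered in 6 of 8, 31 of 46 and 21 of 28, stand near the bottom.

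The response of E545K was then compared with that of each other line as a difference of differences, which asks whether the same drug changed a gene by another amount. The E545K DMSO libraries are part of both comparisons. Against wild type, the log2 change was higher in E545K in 1377 genes (10.9%) and lower in 1857 (14.7%), or 1829 and 1837 after quantile normalization. In 62 genes E545K rose and wild type fell with the difference called, and in 243 E545K fell and wild type rose. Against H1047R it was higher in E545K in 2699 genes (21.4%) and lower in 1438 (11.4%), with 202 and 148 genes of such opposite calls. This split depended on scaling. The median difference over all genes was 0.13 against H1047R and -0.04 against wild type. After median-centring 1431 were higher and 2270 lower, and with the groups compared alone in the fit 1007 and 668. The H1047R palbociclib libraries also had the largest residual SD of the 9 groups (0.23 log2 units, against 0.11 in E545K palbociclib), and without its replicate 1 the number higher was 4199. Within wild type, 3434 genes (27.2%) were higher under palbociclib and 853 (6.77%) lower, with a median of 0.14 over all genes. Within H1047R, 2458 (19.5%) were higher and 2493 (19.8%) lower.

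**Figure D4:**
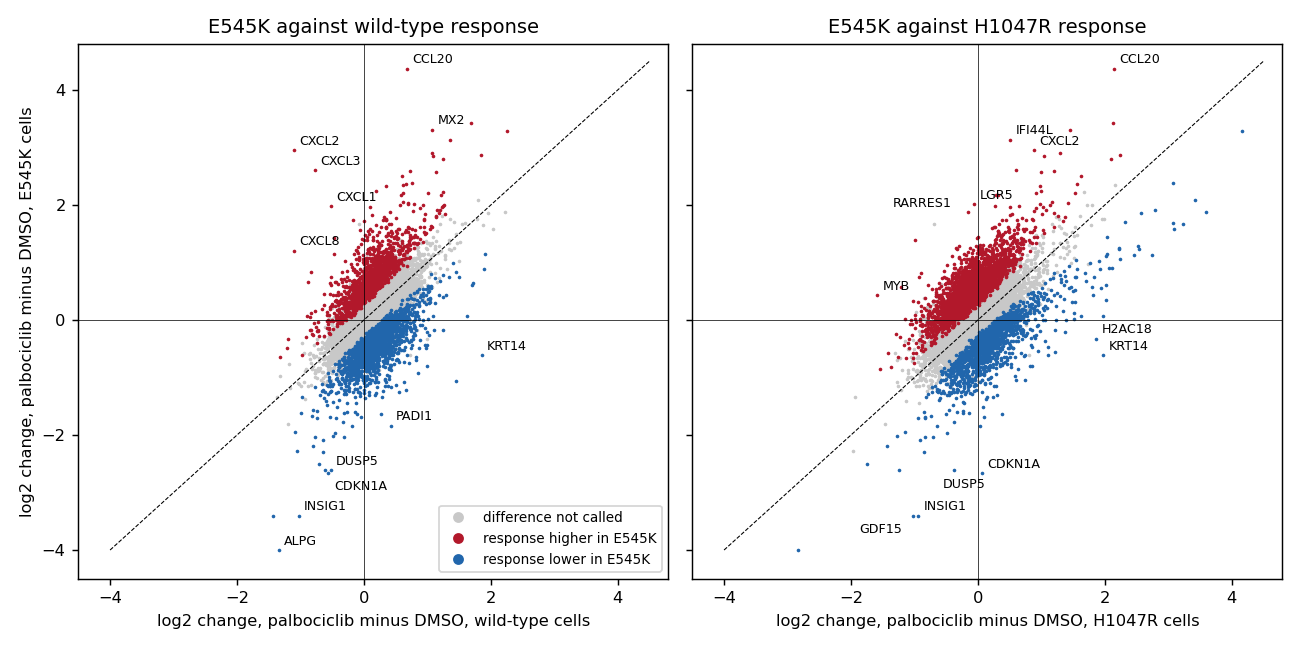
Log2 change under palbociclib in E545K (vertical axis) against that in wild-type cells (left) or H1047R cells (right) for the 12607 tested genes, with a dashed line of equal change; red marks genes whose response was called higher in E545K, blue lower and grey not called. CXCL2, at 2.95 in E545K and -1.10 in wild type, lies in the upper left quadrant, and KRT14, at -0.62 and 1.86, in the lower right.

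The CXCR2 ligands separated E545K from wild type. CXCL2 changed by 2.95 in E545K and by -1.10 in wild type, where it had 4.34 and 4.31 FPKM under palbociclib and 11.1 and 9.72 in DMSO (difference 4.05, adjusted p 6.79e-09). CXCL3, CXCL1 and CXCL8 likewise rose in E545K and fell in wild type (wild-type log2 changes -0.78, -0.52 and -1.10). In H1047R, CXCL2 rose too (0.88), with 63.7 and 74.1 FPKM under palbociclib and 34.8 and 39.3 in DMSO. For CXCL2, E545K was thus closer to H1047R than to wild type under palbociclib, and closer to wild type in DMSO. CXCL8 went the other way, with 48.8 and 47.8 FPKM under palbociclib and 104.89 and 104.75 in DMSO in wild type and 72.2 and 79.9 FPKM under palbociclib and 30.5 and 49.0 in DMSO in H1047R. Of 29 chemokines and cytokines the response was higher in E545K in 9 and lower in 4 against wild type, and higher in 4 and lower in 9 against H1047R. All tested genes had 10.9% higher and 14.7% lower against wild type, and 21.4% and 11.4% against H1047R.

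Interferon-stimulated genes had a larger response in E545K than in the other lines, with a median log2 change of 1.4 in E545K, 0.76 in wild type and 0.94 in H1047R. The difference was called higher in E545K in 28 of 42 against wild type and in 25 against H1047R, and lower in 1 and 5. Over all tested genes 10.9% and 21.4% were higher, and 14.7% and 11.4% lower. IFI44L changed by 3.13 in E545K, 1.36 in wild type and 0.51 in H1047R. A larger change was not always a higher level. Wild type had 21.0 and 20.8 FPKM of IFI44L under palbociclib and 7.31 and 7.79 in DMSO. E545K had 22.1 and 23.1 FPKM under palbociclib and 1.94 and 1.46 in DMSO. Under palbociclib IFIT2 (70.7 and 64.2 FPKM) and RSAD2 (25.05 and 20.4) were higher in H1047R than in E545K. SAMD9, MX2, IFI6, OAS2 and IFI44L were lower in H1047R, and all of these genes were lower in wild type. The response of sensors was called higher in E545K in 8 of 11 against either line. HLA class II went the other way against H1047R, with 11 of 16 responses lower in E545K and 1 higher, and medians of 0.87 and 2.04. HLA-DPA1 changed by 1.67 in E545K and by 3.23 in H1047R (adjusted p of the difference 3.06e-06), and CFB, a complement factor, by 1.87 and 3.59 (3.37e-06).

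Cell cycle genes divided. The 41 replication genes had 12 responses higher in E545K than in wild type and 17 higher than in H1047R, with 0 lower in each. MCM3, at 0.89 in E545K, was not called in wild type (0.02) or H1047R (0.14), and the differences were called (adjusted p 6.61e-05 and 2.00e-04). The wild-type libraries had 31.7 and 32.9 FPKM under palbociclib and 31.8 and 31.6 in DMSO. Those of H1047R had 59.0 and 67.9 FPKM under palbociclib and 57.4 and 57.2 in DMSO. Under palbociclib E545K was thus above both other lines, and in DMSO it lay between them. In mitosis the medians were -0.37 in E545K, -0.51 in wild type and -0.38 in H1047R. The response was higher in E545K in 9 of 46 and lower in 0 against wild type, and higher in 8 and lower in 10 against H1047R. The shares over all tested genes were 10.9% and 14.7% against wild type and 21.4% and 11.4% against H1047R. RB1 changed by 1.02 in E545K against 0.45 in wild type and 0.02 in H1047R (adjusted p 0.0212 and 5.98e-04).

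The fall of CDKN1A was larger in E545K than in either other line. Wild-type cells had 162 and 166 FPKM under palbociclib and 237 and 247 in DMSO (-0.56; difference -2.11, adjusted p 1.28e-06). H1047R cells had 56.3 and 68.9 FPKM under palbociclib and 61.3 and 57.8 in DMSO, a change that was not called (0.07; adjusted p of the difference 1.52e-07). E545K and wild-type cells were thus both high in DMSO, while H1047R cells were near the palbociclib level of E545K in both conditions. Of 28 p53 targets 16 had a lower response in E545K than in wild type and 17 than in H1047R, with 2 and 1 higher. Over all tested genes 14.7% and 11.4% were lower, and 10.9% and 21.4% higher. CDKN1B fell in E545K (-0.65) and H1047R (-0.73) and was not called in wild type (0.03).

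Responses of ER chaperones were mostly lower in E545K, and some were opposite in direction. HSPA5 rose in wild type, with 618 and 636 FPKM under palbociclib and 312 and 317 in DMSO (1.00), and in H1047R, with 208 and 204 FPKM under palbociclib and 115 and 117 in DMSO (0.82), against -0.81 in E545K (adjusted p of the differences 3.75e-08 and 1.52e-07). MANF did the same (0.52 and 0.49). Over the list of 19 the medians were -0.16 in E545K, 0.43 in wild type and 0.30 in H1047R, with 11 responses lower in E545K and 1 higher against either line. Ribosome biogenesis showed a larger rise in E545K, with medians of 0.57, 0.12 and 0.26 in the same order. Of its 28 responses 16 were higher than in wild type and 11 higher than in H1047R. Over all tested genes 10.9% of responses were higher and 14.7% lower against wild type, and 21.4% and 11.4% against H1047R. NOP56 had 32.5 and 34.5 FPKM under palbociclib and 33.6 and 32.8 in DMSO in wild type, where it was not called (0.01), and 94.5 and 91.6 FPKM under palbociclib and 64.3 and 65.5 in DMSO in H1047R (0.51).

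Other genes that responded in different directions came from several families. REG4, a secreted lectin of intestinal endocrine cells, had 11.1 and 11.1 FPKM under palbociclib and 3.47 and 3.48 in DMSO in E545K (1.43). In wild type it fell, with 1.12 and 1.53 FPKM under palbociclib and 2.42 and 1.99 in DMSO (-0.47), and in H1047R it was not called (-0.01). The transcription factor MYB rose in E545K, with 25.1 and 23.8 FPKM under palbociclib and 18.6 and 17.0 in DMSO (0.44), and fell in wild type (-0.48) and in H1047R, with 22.6 and 15.0 FPKM under palbociclib and 55.0 and 60.1 in DMSO (-1.59). Its E545K call was lost without palbociclib replicate 1 (adjusted p 0.0605) or DMSO replicate 2 (0.0721), in a range of 0.000266 to 0.0721, while its difference from H1047R stayed called in the 17 alternatives run. KRT14, a basal keratin, was low in E545K at 1.15 and 0.82 FPKM under palbociclib and 2.02 and 2.04 in DMSO (-0.62) and rose in wild type, with 33 and 31.1 FPKM under palbociclib and 8.01 and 8.24 in DMSO (1.86), and in H1047R, with 10.2 and 14.6 FPKM under palbociclib and 2.83 and 1.95 in DMSO (1.98). Its E545K call was lost without palbociclib replicate 2 (0.13) or either DMSO library (0.0644 and 0.0696), in a range of 0.000226 to 0.13. PADI1, which converts arginine to citrulline in epidermal proteins, had 3.28 and 3.48 FPKM under palbociclib and 14.9 and 14.4 in DMSO in E545K (-1.84) and rose in wild type, with 12.0 and 11.4 FPKM under palbociclib and 8.58 and 8.31 in DMSO (0.42).

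E545K cells, of a clone not stated for these libraries, were also sequenced in conditioned medium in the same table and, under 0.5 µM palbociclib alone, in a second table of 8 libraries that was normalized on its own and whose hours of treatment are not stated by library. Neither was tested against the DMSO libraries here, and the second table has none. Of the 20 genes with the largest changes, 18 stood nearer to the first table's palbociclib mean than to its DMSO mean in the second table, with IFIT2 and CD74 as the exceptions. Over all 194 named and called genes, compared on the log2 scale, it was 162 in the second table, with 32 nearer to DMSO, and 155 in conditioned medium. Both sets were chosen through calls between the first table's E545K palbociclib and DMSO libraries, and no share over all tested genes was taken. Those DMSO libraries also stood apart from the other E545K libraries, so counts over either set do not measure agreement. All 4 class II genes named by the rule stood nearer to DMSO in the second table and nearer to palbociclib in conditioned medium. HLA-DRA had 10.8 and 10.8 FPKM in the second table, HLA-DPA1 2.98 and 3.24 and HLA-DRB1 6.36 and 7.46. CEACAM5, CEACAM6 and MMP7, raised in the first table, were also near or below the first table's DMSO level there. CD74 had 8.28 and 8.14 FPKM there and IFIT2 13.0 and 13.4. CDKN1A had 19.5 and 20.2 FPKM there, CCL20 24.7 and 23.4 and CXCL2 41.4 and 41.2. In conditioned medium of senescent cells, whose label names no palbociclib treatment, 17 of the 20 also stood nearer to the palbociclib mean, with INSIG1, FGFBP1 and IFIT2 as the exceptions. CDKN1A had 40.3 and 45.6 FPKM in conditioned medium, GDF15 34.8 and 36.3, CXCL2 48.6 and 52.1 and INSIG1 124 and 127.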

How the data were processed

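The series holds 26 RNA sequencing libraries of LoVo cells, 18 in 1 table and 8 in another. The FPKM values are those the authors deposited, per the file headers, with no counts beside them. Per the submitters' processing notes DESeq2 1.4.5, RSEM 1.3.1, HISAT2 2.1.0 and Bowtie2 2.3.4.3 were used with the GRCh38/hg38 build; which tool made which value, and whether counting used strand, is not given in the sources used here. Low values gave no whole-read steps from which depth could be recovered.

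Genes at 1 FPKM or more in at least 2 of the 18 libraries were kept. The log2(FPKM + 1) values were fitted with limma 3.58.1 in R 4.3.3, with 1 term for each of 9 groups of 2 libraries, moderated variances with a trend, and Benjamini-Hochberg adjustment over all tested genes. Differences between lines were contrasts of the same fit. The method was tested on simulated data. Replicate numbers were not taken to pair libraries, since deviations of the same-numbered E545K libraries correlated at 0.15 and those of other pairs at -0.56 to 0.55. Groups came from sample titles and treatment labels. The erlotinib libraries were not analysed here.

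The members, lists and tests were chosen with earlier results of these data known. Genes were named by rule: the 10 highest and 10 lowest changes among called genes with a mean of at least 5 FPKM in the higher group and no overlap, up to 4 called genes with the largest change per list, 14 genes of the cell cycle, PIK3CA and EGFR whatever their values, and the 6 highest and 6 lowest differences from each other line. Other members named because they went against their list, or because a count was small, were chosen after their values were seen. Near-identical genes (ALPG and ALPP, AKR1C, CXCL1 to CXCL3, HLA, metallothioneins, HSPA1B, KRT8 and KRT18 with their pseudogenes) are uncertain where counting could split reads. Alternatives changed the pseudocount (0.1), the filter (none, or 5 FPKM), the variance trend, scaling (quantile normalization, median-centring, or FPKM rescaled to an equal sum in every library, called the TPM scale), the samples fitted, a replicate block and the libraries left out. Promoter sequences are from RefSeq, GRCh38.p14. Some genes named by this rule are not reported here.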

Additional observations from a re-analysis of the deposited data

Results flagged for a closer look

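The palbociclib response of E545K was called different from that of wild type in 1377 genes higher and 1857 lower, and from that of H1047R in 2699 higher and 1438 lower, by limma contrasts of the 2 responses. The widest differences from wild type were in chemokines and an interferon-stimulated gene: CXCL2 (4.05), CCL20 (3.69), CXCL3 (3.38), CXCL1 (2.50), CXCL8 (2.3) and MX2 (2.24 log2 units higher in E545K). CCL20 changed by 4.37 in E545K and by 0.68 in wild type. Lower in E545K were ALPG (-2.67), KRT14 (-2.47), INSIG1 (-2.38), PADI1 (-2.26), CDKN1A (-2.11) and DUSP5 (-2.08), and ALPG had 193 and 201 FPKM in wild type under palbociclib and 491 and 509 in DMSO (-1.34).

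Against H1047R, where the median difference over all genes was 0.13, the highest were IFI44L (2.62), CCL20 (2.22), CXCL2 (2.07), LGR5 (2.07), RARRES1 (2.02) and MYB (2.02). LGR5 had 51.7 and 30.9 FPKM under palbociclib and 41.0 and 42.3 in DMSO in H1047R, with overlapping groups (-0.06). RARRES1, induced by retinoic acid, had 26.7 and 24.2 FPKM under palbociclib and 6.33 and 6.06 in DMSO in E545K (1.88), against 23.8 and 28.3 FPKM under palbociclib and 28.6 and 29.1 in DMSO in H1047R. The lowest were CDKN1A (-2.73), KRT14 (-2.59), INSIG1 (-2.46), GDF15 (-2.40), DUSP5 (-2.23) and H2AC18 (-2.19). GDF15 fell in all 3 lines, with log2 changes of -1.02 in H1047R and -1.43 in wild type. H2AC18, a histone gene with near-identical copies, was not called within E545K, and its H1047R DMSO libraries stood at 0 and 5.42 FPKM. Its difference (adjusted p 0.0315) was lost in 9 of 17 alternatives.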

How the results depend on the processing

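Scaling between libraries moved several counts. After median-centring 3667 genes were lower under palbociclib in E545K, and against H1047R 1431 responses were higher and 2270 lower. With the groups compared alone in the fit those against H1047R numbered 1007 and 668. The cause was not tested. Against wild type the split was 1515 and 1632 after median-centring and 1069 and 1762 on the TPM scale, and against H1047R 2924 and 1080 on the TPM scale and 1885 and 1916 after quantile normalization. Leaving out 1 library at a time gave 3293 to 3495 genes higher and 1833 to 1985 lower in E545K. It gave 921 to 1065 higher and 1295 to 1553 lower against wild type, and 1626 (without E545K DMSO replicate 2) to 4199 (without H1047R palbociclib replicate 1) higher and 978 to 2068 lower against H1047R. With the replicate number as a block, which shares only a number, the counts were 4155 and 2440, 1393 and 1877, and 2759 and 1475. The log2 change of EGFR turned to -0.036 after median-centring. CCNE2 and H2AC18 were called with the groups compared alone (adjusted p 0.0398 and 0.0084). Of the named log2 changes under all alternatives, 2541 kept direction and side of the threshold, 30 lost the call, 2 gained it and 1 reversed. Besides those described, calls were lost for CD68 without any 1 of the 4 libraries, for COL3A1 under quantile normalization and median-centring, and for ANKRD37, MLXIPL, HBEGF, MT1G and NOTUM in 1 or 2 alternatives each. Depth is unknown, so low genes such as MX2 in DMSO have no counting limit.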
